A study of Mus musculus with 6 samples.

Results

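NF-kB is a family of dimeric transcription factors that controls inflammatory, survival and antigen-presentation genes. The 10 genes described here are its core. They are the subunit genes Rela, Relb, Nfkb1 and Nfkb2, the inhibitor genes Nfkbia, Nfkbib and Tnfaip3, and the kinase-complex genes Chuk, Ikbkb and Ikbkg. They were taken by gene symbol from a table of 22535 gene rows, where each of the 10 was found once, and all 10 were abundant enough to be tested.

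The libraries came from B16-BL6, a line of mouse melanoma cells derived from B16, in standard culture medium. Cells labelled sgControl carried a control guide RNA (n = 3 libraries), and cells labelled sgNDUFS4 carried a guide against Ndufs4, a subunit gene of mitochondrial respiratory complex I (n = 3 libraries). Both groups share the parental line and the growth conditions, and the study compared their transcripts because the sgNDUFS4 cells had proved immunogenic. Whether a group is 1 clone or a pool, and whether libraries of a group are separate cultures, is not given in the sources used here, so the p-values rest on a spread between libraries that may be technical.

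In resting cells the dimers are held in the cytoplasm by inhibitors of the IκB family, among them the products of Nfkbia and Nfkbib. In the canonical pathway, receptors of the tumour necrosis factor, interleukin-1 and Toll-like families activate the IκB kinase complex, built from the catalytic subunits IKKα (Chuk) and IKKβ (Ikbkb) and the regulatory subunit NEMO (Ikbkg), and the inhibitor is degraded. In the non-canonical pathway the kinase NIK (Map3k14) acts through IKKα, and the Nfkb2 precursor is processed to pair with RelB. Nfkbia, Nfkb2, Relb and Tnfaip3 are among the core genes that are themselves textbook NF-kB targets, which makes their mRNAs part of the pathway's feedback. This is not a full list of such genes.

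Levels are CPM, the count of a gene per 1e6 reads counted in genes, and the libraries held between 20090607 and 25947374 such reads. Fold changes are differences of log2(CPM + 0.5), sgNDUFS4 minus sgControl, from limma over the 11063 genes whose mean reached 1 CPM, with Benjamini-Hochberg adjusted p-values and a threshold of 0.05. The targeted gene Ndufs4 was at 54.3, 55.0 and 52.4 CPM under sgControl and at 14.99, 15.98 and 16.84 CPM under sgNDUFS4. The 8 melanocyte-lineage markers summed to between 15958 and 16471 CPM in sgControl and between 15000 and 16072 CPM in sgNDUFS4, but 2 of them were called higher and 5 lower. Tyr, which encodes tyrosinase, fell from 32.3 ± 1.57 to 3.10 ± 0.436 CPM (SD, n = 3 each), a log2 difference of -3.19 (limma adjusted p = 5.3e-17). Mlana and Dct fell by 0.42 and 0.31 on the log2 scale, and Pmel rose by 0.34. Markers of leukocytes and macrophages summed to between 7.95 and 15.5 CPM in sgControl and between 5.86 and 14.9 CPM in sgNDUFS4, with the lymphocyte markers Cd3e and Ms4a1 at 0 throughout. The marker Itgam has 2 gene rows, and both are counted in these sums. Markers of fibroblasts, endothelium and epithelium summed to between 35.7 and 36.9 CPM in sgControl and between 34.6 and 38.4 CPM in sgNDUFS4, most of it Col1a2. The macrophage marker Cd68 was lower in sgNDUFS4 (4.84 ± 1.43 and 2.64 ± 1.34 CPM, mean ± SD, n = 3 each; limma, adjusted p = 0.0082), though its groups overlapped. The other 2 tested markers of that list did not pass. Lyz2 was at 3.49 CPM in sgControl and 4.34 CPM in sgNDUFS4 on average (limma adjusted p = 0.36). Adgre1 was at 1.21 and 1.26 CPM (limma adjusted p = 0.84). The epithelial marker Krt8 was called lower too, at 4.38, 2.75 and 0 CPM in sgControl and 0 in every sgNDUFS4 library (limma, adjusted p = 0.0024). Its groups overlapped at 0 CPM, and both its passage of the filter and the call rest on the sgControl libraries with reads. The part of these markers in the results was not tested. In bulk RNA, fewer cells expressing a gene and less of its RNA per cell cannot be told apart.

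Of the 10 genes, 3 were higher in sgNDUFS4 (Nfkb1, Chuk and Ikbkb), 3 were lower (Ikbkg, Nfkbia and Nfkb2), and Rela, Relb, Nfkbib and Tnfaip3 did not pass. Over all genes tested, 31.8% were called higher and 20.3% lower, 52.0% in either direction, so that 6 calls among 10 lie near the background. In 7 of the 10 genes the libraries of the groups did not overlap, against 57.2% of all genes tested. The median log2 fold change was -0.06 over the 10 genes and 0.06 over all genes tested. As deposited, 61.1% of all calls were higher, and with TMM scaling, which matches the libraries on the bulk of their genes, 49.1% were higher.

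**Figure D1:**
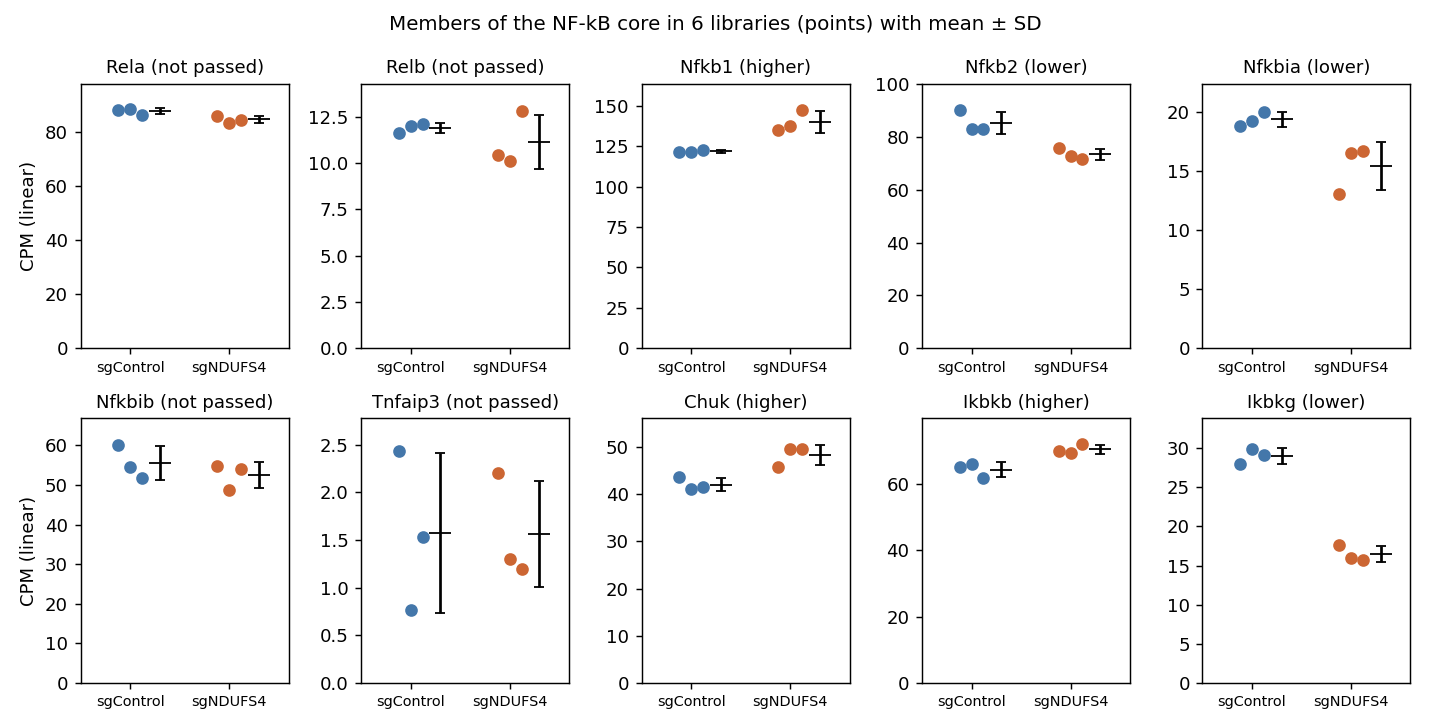
CPM (linear axis from 0) of the 10 core genes in each sgControl (blue) and sgNDUFS4 (orange) library, with the mean ± SD beside the points and the limma call in each title. The Ikbkg points of sgNDUFS4 lie between 15.8 and 17.6 CPM, below all sgControl points, whereas the Tnfaip3 points of the groups overlap.

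Among the subunits, Nfkb1 encodes a precursor processed to a DNA-binding subunit without an activation domain. Nfkb1 (ENSMUSG00000028163.17, chromosome 3, 135584655 to 135691547, minus strand, GRCm38, as for all positions here) was at 121.4, 121.4 and 123.0 CPM under sgControl and at 134.9, 137.9 and 147.6 CPM under sgNDUFS4. Every sgNDUFS4 library was above every sgControl library. The mean rose from 121.9 ± 0.944 to 140.1 ± 6.67 CPM (SD, n = 3 each), a log2 difference of 0.20 (SE 0.0435, limma adjusted p = 0.00042).

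Nfkb2 encodes the precursor of the non-canonical pathway and moved the other way. Nfkb2 (ENSMUSG00000025225.15, chromosome 19, 46304320 to 46312385, plus strand) was at 90.2, 83.0 and 83.0 CPM in sgControl and at 75.9, 72.7 and 71.7 CPM in sgNDUFS4, again without overlap. Its mean fell from 85.4 ± 4.15 to 73.4 ± 2.19 CPM (SD, n = 3 each), a log2 difference of -0.22 (SE 0.0517, limma adjusted p = 0.0011). Exons of Psd and AC114539.1 on the opposite strand cover 18.1% of the Nfkb2 exon bases, and the libraries did not keep the strand, so reads there cannot be assigned. Psd itself was low, at 5.38 CPM in sgControl and 6.63 CPM in sgNDUFS4.

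Within each library the ratio of Nfkb2 to Nfkb1 CPM does not depend on how the library is scaled. It was 0.743, 0.684 and 0.674 in sgControl and 0.563, 0.527 and 0.486 in sgNDUFS4, and the groups did not overlap. The mean went from 0.701 ± 0.0372 to 0.525 ± 0.0386 (SD, n = 3 each; exact 2-sided permutation p = 0.1, the smallest that 3 against 3 libraries allow). This ratio and those given below were chosen after their values had been seen.

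Rela encodes the main transactivating subunit of the canonical dimer. Rela (ENSMUSG00000024927.8, chromosome 19, 5637483 to 5648130, plus strand) was at 88.0, 88.6 and 86.5 CPM in sgControl and at 86.1, 83.5 and 84.6 CPM in sgNDUFS4. These groups did not overlap, but the difference of -0.05 on the log2 scale was about as large as its SE of 0.0472 (limma adjusted p = 0.40). Relb, the partner of processed Nfkb2 (ENSMUSG00000002983.17, chromosome 7, 19606217 to 19629438, minus strand), was at 11.6, 12.007 and 12.1 CPM in sgControl and at 10.5, 10.1 and 12.8 CPM in sgNDUFS4. The groups overlapped, with a log2 difference of -0.10 (SE 0.120, limma adjusted p = 0.51). Rel, the remaining subunit of the family, was low at 2.63 ± 0.217 and 1.98 ± 0.443 CPM (mean ± SD, n = 3 each; limma, adjusted p = 0.20).

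Among the inhibitors, Nfkbia encodes IκBα, which is degraded on stimulation and resynthesised under NF-kB control. Nfkbia (ENSMUSG00000021025.8, chromosome 12, 55489410 to 55492647, minus strand) was at 18.8, 19.2 and 19.98 CPM in sgControl and at 13.01, 16.5 and 16.7 CPM in sgNDUFS4. No sgNDUFS4 library reached the sgControl range, and the first sgNDUFS4 library was the lowest. The mean fell from 19.3 ± 0.611 to 15.4 ± 2.06 CPM (SD, n = 3 each), a log2 difference of -0.33 (SE 0.105, limma adjusted p = 0.011). That first library decides the call: without it the log2 fold change was -0.21 (limma adjusted p = 0.10). Relative to Rela, Nfkbia CPM was 0.213, 0.217 and 0.231 in the sgControl libraries and 0.151, 0.197 and 0.197 in the sgNDUFS4 libraries (exact 2-sided permutation p = 0.1, the smallest possible).

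Nfkbib encodes IκBβ, a related inhibitor. Nfkbib (ENSMUSG00000030595.15, chromosome 7, 28758251 to 28767512, minus strand) was at 60.2, 54.5 and 51.8 CPM in sgControl and at 54.7, 48.8 and 54.1 CPM in sgNDUFS4. The groups overlapped and the log2 fold change was -0.08 (SE 0.0649, limma adjusted p = 0.33). Relative to Rela, Nfkbib CPM was 0.633 ± 0.0449 in sgControl and 0.620 ± 0.0309 in sgNDUFS4 (SD, n = 3 each; exact 2-sided permutation p = 0.8), with overlap. Exons of Sirt2 and Ccer2 on the opposite strand cover 16.4% of the Nfkbib exon bases, where reads without strand cannot be assigned. Sirt2 was more abundant than Nfkbib, at 100.8 CPM in sgControl and 102.6 CPM in sgNDUFS4 on average. The part of such reads in the Nfkbib level was not tested. Tnfaip3 encodes a ubiquitin-editing enzyme that shuts the pathway off upstream of the kinases. Tnfaip3 (ENSMUSG00000019850.11, chromosome 10, 19000910 to 19015657, minus strand) was at 2.44, 0.761 and 1.53 CPM in sgControl and at 2.21, 1.30 and 1.19 CPM in sgNDUFS4. These values rest on 18 to 57 reads per library, and the spread within each group exceeded the difference between the means (log2 fold change 0.04, SE 0.298, limma adjusted p = 0.91).

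Promoter sequence was read for the feedback genes, because their own promoters are known to carry κB sites, the decamers bound by NF-kB dimers. The windows come from RefSeq on GRCm38.p6, reach from 250 bases before to 50 bases after a transcription start, and were found for 7 of the 10 genes, Relb, Nfkb1 and Ikbkb not among them. The κB consensus was sought on both strands. It occurred in windows of 3 of the 7 genes, Nfkbia, Nfkb2 and Tnfaip3, against 1388 of all 27025 genes with a window (5.14%). Counted by window, 4.51% of all 32851 windows of that length held it. The 250 bases before the start are printed 5′ to 3′ along the gene for 1 window of each, with the matches to the κB consensus in capitals.
Nfkbia chr12:55492648-55492897, minus strand: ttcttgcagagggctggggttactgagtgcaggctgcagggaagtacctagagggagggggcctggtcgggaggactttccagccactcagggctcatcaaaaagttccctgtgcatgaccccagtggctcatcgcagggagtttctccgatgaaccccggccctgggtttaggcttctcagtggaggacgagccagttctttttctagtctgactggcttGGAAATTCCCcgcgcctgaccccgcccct
Nfkb2 chr19:46304487-46304736, plus strand: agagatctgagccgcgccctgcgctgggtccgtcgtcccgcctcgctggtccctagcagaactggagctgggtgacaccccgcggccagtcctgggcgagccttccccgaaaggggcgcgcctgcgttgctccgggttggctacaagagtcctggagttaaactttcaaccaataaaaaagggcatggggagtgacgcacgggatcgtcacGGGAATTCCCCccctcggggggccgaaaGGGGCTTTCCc
Tnfaip3 chr10:19015411-19015660, minus strand: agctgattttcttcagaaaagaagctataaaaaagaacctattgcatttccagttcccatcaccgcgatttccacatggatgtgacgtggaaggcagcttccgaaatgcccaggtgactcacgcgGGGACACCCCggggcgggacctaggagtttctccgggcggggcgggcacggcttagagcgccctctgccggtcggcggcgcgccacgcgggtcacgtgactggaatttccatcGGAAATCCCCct
The Nfkbia window held 1 match, from 29 to 20 bases before the start. The Nfkb2 window held 3, of which 2 overlap in the run that starts 39 bases before the start, and the last one ends 2 bases before it. Nfkb2 windows at 2 further starts also held matches. The Tnfaip3 window held 2, which start 125 and 12 bases before the start. Of these 3 genes, Nfkbia and Nfkb2 were called, both lower in sgNDUFS4, and Tnfaip3 did not pass. Over all genes tested, 52.0% were called and 20.3% were called lower. Nfkb1, which was called higher, had no window to search. A link between matches and fold changes was not tested. A match is a string of letters and was not tested as a binding site in these cells.

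The kinase complex showed the largest difference of the core. Ikbkg (ENSMUSG00000004221.16, chromosome X, 74393290 to 74453854, plus strand) encodes NEMO, the ubiquitin-binding scaffold on which the canonical pathway depends. It was at 27.97, 29.9 and 29.2 CPM under sgControl and at 17.6, 15.9 and 15.8 CPM under sgNDUFS4. All sgNDUFS4 libraries lay well below all sgControl libraries. The mean fell from 29.0 ± 0.989 to 16.4 ± 1.03 CPM (SD, n = 3 each), which is 43.4% lower, with a log2 difference of -0.80 (SE 0.0875, limma adjusted p = 2.6e-08).

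The catalytic subunits were slightly higher. Chuk (ENSMUSG00000025199.16, chromosome 19, 44073335 to 44107480, minus strand) was at 43.6, 41.2 and 41.4 CPM in sgControl and at 45.8, 49.6 and 49.6 CPM in sgNDUFS4. Ikbkb (ENSMUSG00000031537.15, chromosome 8, 22659212 to 22706589, minus strand) was at 65.2, 66.0 and 61.6 CPM in sgControl and at 69.8, 69.5 and 72.0 CPM in sgNDUFS4. Neither gene's groups overlapped. Chuk rose by 0.20 on the log2 scale (SE 0.0633, limma adjusted p = 0.011) and Ikbkb by 0.13 (SE 0.0532, limma adjusted p = 0.041). With TMM scaling both stayed above 0, at 0.14 (limma adjusted p = 0.066) for Chuk and 0.07 (limma adjusted p = 0.26) for Ikbkb, and neither passed. The Ikbkb call was also lost without sgControl replicate 1, without sgControl replicate 3 and without any 1 of the sgNDUFS4 libraries, with limma adjusted p-values of up to 0.14, and in the fit without a variance trend (limma adjusted p = 0.065).

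Within each library the regulatory subunit was also lower relative to its partners. The ratio of Ikbkg to Chuk CPM was 0.642, 0.727 and 0.704 in sgControl and 0.385, 0.322 and 0.318 in sgNDUFS4, so that the sgNDUFS4 mean was 0.494 times the sgControl mean. The ratio of Ikbkg to Ikbkb CPM was 0.429, 0.454 and 0.473 in sgControl and 0.252, 0.229 and 0.219 in sgNDUFS4, with a ratio of means of 0.517. In both cases the exact 2-sided permutation p was 0.1, the smallest possible. The ratio of Chuk to Ikbkb was 0.655 ± 0.0269 in sgControl and 0.686 ± 0.0286 in sgNDUFS4 (SD, n = 3 each; exact permutation p = 0.3), and the groups overlapped.

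**Figure D2:**
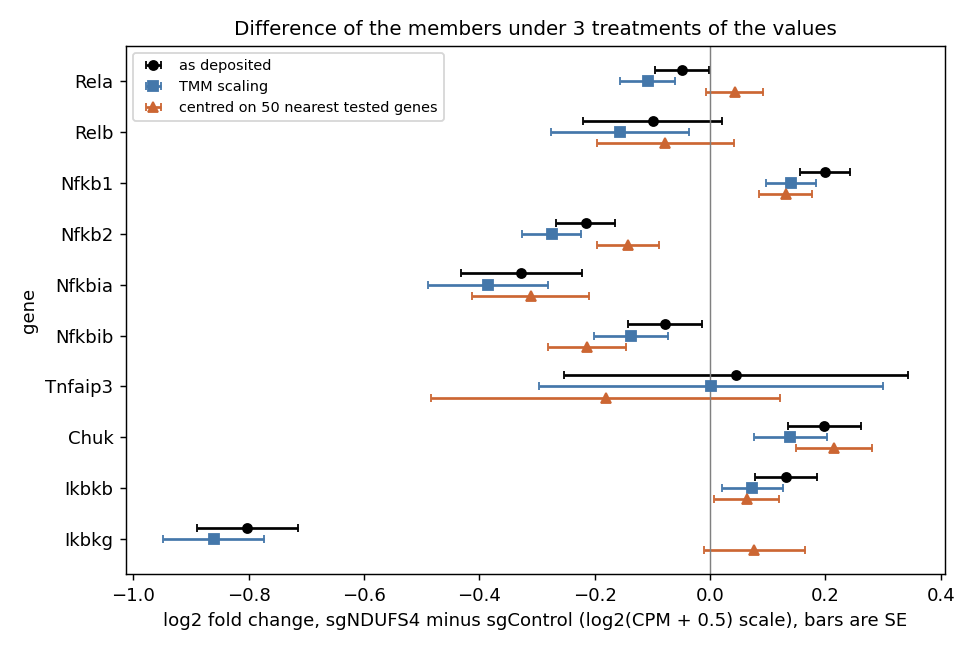
Log2 fold change (sgNDUFS4 minus sgControl) with its SE for the 10 core genes, from the deposited values (black circles), after TMM scaling (blue squares) and after centring each gene on its 50 nearest tested genes (orange triangles). Ikbkg goes from -0.80 to 0.08 with centring, while Nfkbia stays between -0.38 and -0.31.

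Ikbkg lies on chromosome X among genes that were lower as well. Of the 50 tested genes nearest to it, 48 had a fold change below 0 and 44 were called lower, with a median log2 fold change of -0.87 (quartiles -1.06 and -0.64). Ikbkg was less negative than 29 of these 50 neighbours. After each gene was centred on its 50 nearest tested neighbours, Ikbkg had a log2 difference of 0.08 (SE 0.0873, limma adjusted p = 0.51). Measured between the genes' lower coordinates, as all such distances here, the nearest tested genes on either side were Fam3a, at -1.15 (limma adjusted p = 5.4e-08), and G6pdx, at -1.06 (limma adjusted p = 1.1e-18). Over the whole of chromosome X, 203 of 338 tested genes were called lower, against 19.1% of the tested autosomal genes.

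G6pdx, which encodes the first enzyme of the pentose phosphate pathway, lies within the span of Ikbkg on the opposite strand, and 1 of the RefSeq starts of Ikbkg lies head to head with its start. The 2 starts are 435 bases apart, and the 250 bases before each share 66 bases. The Ikbkg window is shown 5′ to 3′, with the bases shared by both windows in capitals.
Ikbkg chrX:74429065-74429314, plus strand: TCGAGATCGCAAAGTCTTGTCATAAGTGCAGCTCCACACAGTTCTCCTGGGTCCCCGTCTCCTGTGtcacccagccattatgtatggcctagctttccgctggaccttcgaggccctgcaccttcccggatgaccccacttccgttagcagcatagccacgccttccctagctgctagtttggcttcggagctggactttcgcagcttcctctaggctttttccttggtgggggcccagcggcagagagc
No match to the κB consensus was found in this window or in the other 3 Ikbkg windows. G6pdx was at 380.1, 379.0 and 396.6 CPM in sgControl and at 189.1, 183.3 and 180.7 CPM in sgNDUFS4. Exons of the 2 genes overlap over 418 bases, 5.15% of the Ikbkg exon bases and 13.6% of those of the more abundant G6pdx. Without strand, reads in the overlap cannot be told apart, and their part in the Ikbkg level was not tested. The ratio of Ikbkg to G6pdx CPM was 0.0736, 0.0790 and 0.0736 in sgControl and 0.0932, 0.0869 and 0.0872 in sgNDUFS4.

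**Figure D3:**
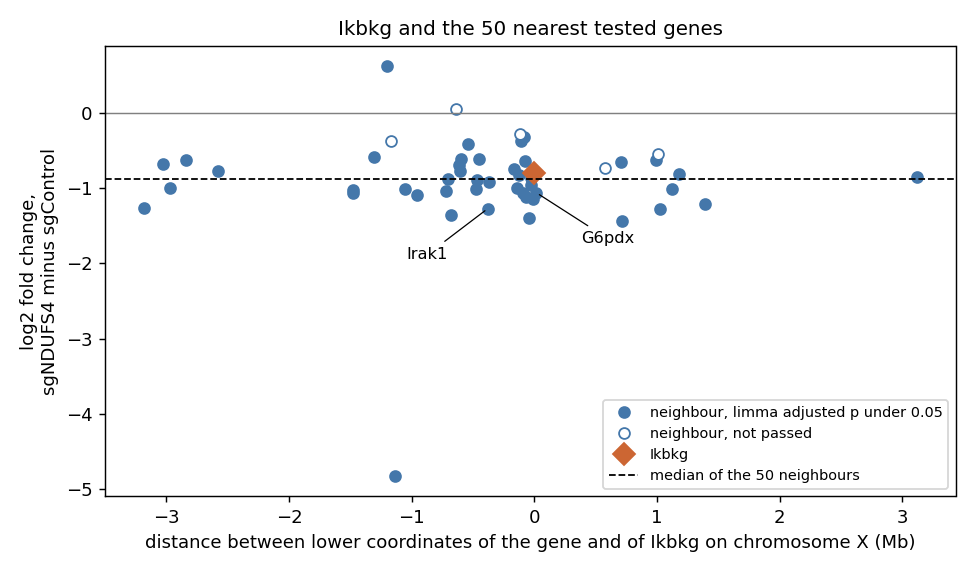
Log2 fold change (sgNDUFS4 minus sgControl) of Ikbkg (orange diamond) and its 50 nearest tested genes (circles, filled where limma adjusted p is under 0.05) against the distance in Mb between the lower coordinates of the gene and of Ikbkg. The dashed line is the median of the neighbours, -0.87, and Ikbkg at -0.80 sits close to it.

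For the other core genes, the medians of the 50 nearest tested genes lay between -0.09 at Rela and 0.25 at Tnfaip3. Nfkb1, Nfkb2, Nfkbia and Chuk passed after centring too, with log2 fold changes of 0.13, -0.14, -0.31 and 0.22 in turn (limma adjusted p = 0.022, 0.034, 0.015 and 0.010). Ikbkb did not pass after centring, at 0.06 (limma adjusted p = 0.38). Nfkbib passed only after centring, at -0.21 (limma adjusted p = 0.012), among neighbours with a median of 0.13. Over all 10896 genes tested after centring, 2367 were called higher and 2394 lower. Of the genes flanking Rela, Sipa1, 13.7 kb away, rose by 0.59 on the log2 scale (limma adjusted p = 3.6e-08). Kat5, on the other side of Rela, was lower at -0.18 (limma adjusted p = 0.029). Of those flanking Tnfaip3, Arfgef3, 419.1 kb away, rose by 0.69 (limma adjusted p = 4.9e-05). Ifngr1, on the other side of Tnfaip3, was at 0.05 (limma adjusted p = 0.70). Both flanking genes of Nfkb1 were called higher, Manba, 99.0 kb away, at 0.44 and Ppp3ca, 1085.5 kb away, at 0.33. Both of Nfkbia were called lower, Psma6 at -0.23 and Aldoart2 at -0.91 (limma adjusted p of 0.027 or less for these 4 flanking genes). Aldoart2 was scarce and its groups overlapped. Its sgNDUFS4 values were 0.542, 1.09 and 0.963 CPM, against sgControl values of 2.89, 3.42 and 0.718. Among the 50 tested genes nearest to Nfkbia, 11 were called lower and 7 higher, with a median log2 fold change of -0.02. Beside Nfkb2, Gbf1 was at 0.05 (limma adjusted p = 0.25) and Psd at 0.29 (limma adjusted p = 0.15). Beside Chuk, Erlin1 rose by 0.22 (limma adjusted p = 0.016) and Cwf19l1 was at -0.14 (limma adjusted p = 0.12). Beside Ikbkb, Polb was at 0.13 (limma adjusted p = 0.15) and Plat at -0.32 (limma adjusted p = 0.23).

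Levels of different genes can be compared only per length. Per kilobase of merged exons, the sgControl means were 28.5 ± 0.356 CPM per kb for Rela, 25.6 ± 1.96 for Nfkbib, 18.6 ± 0.906 for Nfkb2, 12.004 ± 0.379 for Nfkbia and 10.1 ± 0.0783 for Nfkb1 (SD, n = 3 each). Below these came Chuk at 8.27 ± 0.256, Ikbkg at 3.58 ± 0.122, Ikbkb at 3.37 ± 0.121, Relb at 3.07 ± 0.0708 and Tnfaip3 at 0.218 ± 0.116 CPM per kb (SD, n = 3 each). Among neighbours in this order, the 3 libraries of Ikbkg (3.45 to 3.69 CPM per kb) and of Ikbkb (3.23 to 3.46 CPM per kb) overlapped, and the other neighbouring pairs did not. In sgNDUFS4, Ikbkg was at 2.03 ± 0.127 CPM per kb, below Ikbkb at 3.69 ± 0.0719 and Relb at 2.87 ± 0.381. The order depends on the length used, since merged exons span 19.1 kb in Ikbkb and 12.1 kb in Nfkb1 against 3.58 and 4.12 kb in their principal transcripts. Per kilobase of principal transcript, Nfkb1 was at 29.6 ± 0.229 and Ikbkb at 17.95 ± 0.646 CPM per kb in sgControl, and Ikbkg, at 4.28 ± 0.146, was then below both catalytic subunits.

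The rest of the pathway was taken from 5 lists that hold 154 genes other than the core. Of these, 98 were tested, 25 were higher and 24 were lower, or 25.5% and 24.5% against 31.8% and 20.3% of all genes tested. Their median log2 fold change was 0.01, against 0.06 for all genes. The 4 tested pathway genes on chromosome X were Irak1, Xiap, Tab3 and Eda2r, of which the first 3 were lower.

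Irak1 encodes a kinase that relays interleukin-1 and Toll-like receptor signals. It was at 105.0, 106.1 and 104.0 CPM in sgControl and at 44.6, 44.1 and 40.97 CPM in sgNDUFS4, without overlap, and fell by 1.27 on the log2 scale (SE 0.0537, limma adjusted p = 2.1e-16). Its 50 nearest tested genes had a median of -0.87, and after centring on them it was still lower, at -0.40 (SE 0.0561, limma adjusted p = 2.6e-06). Xiap, an inhibitor of apoptosis that also joins receptor complexes of the pathway, fell from 14.4 ± 1.37 to 7.44 ± 1.05 CPM. Tab3, an adaptor of the kinase TAK1, fell from 9.06 ± 1.67 to 4.89 ± 1.29 CPM (SD, n = 3 each). After centring, Xiap was at -0.12 (limma adjusted p = 0.49) and Tab3 at 0.02 (limma adjusted p = 0.92). The receptor gene Eda2r was at 4.64 ± 0.183 and 5.29 ± 0.674 CPM (mean ± SD, n = 3 each; limma, adjusted p = 0.43) among X-linked neighbours with a median of -0.999.

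Of the 40 tested kinases and adaptors upstream of the complex, 9 were higher and 10 lower, around a median log2 fold change of 0.00. For comparison, 31.8% of all genes tested were higher and 20.3% lower. Tbkbp1, which binds the IKK-related kinase TBK1, rose from 13.2 ± 2.01 to 21.9 ± 1.53 CPM, and Map3k14, the kinase that drives the non-canonical pathway, rose from 6.78 ± 0.384 to 11.3 ± 0.594 CPM (SD, n = 3 each). For Tbkbp1 the limma adjusted p was 4.6e-06 and for Map3k14 it was 6.1e-05. Map3k14 was named after its value had been seen. Hsp90ab1, a chaperone of the IKK complex among many clients, fell from 7165 ± 33.6 to 6316 ± 83.9 CPM (SD, n = 3 each). Rbck1, a subunit of the linear ubiquitin ligase, was at 101.9 ± 0.758 and 107.7 ± 5.19 CPM (mean ± SD, n = 3 each; limma, adjusted p = 0.16).

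Of the 22 other subunits, inhibitors and deubiquitinases tested, 6 were higher and 2 lower, around a median of 0.05. The background over all genes tested was 31.8% higher and 20.3% lower. Cyld, a deubiquitinase that removes the chains NEMO binds, rose from 45.8 ± 2.64 to 59.4 ± 2.17 CPM, and Commd1, which promotes the turnover of RelA, rose from 85.4 ± 2.09 to 105.2 ± 2.13 CPM (SD, n = 3 each). Tax1bp1, an adaptor of the Tnfaip3 product, and Otud7b, another deubiquitinase, rose by 0.17 and 0.22 on the log2 scale. In limma the adjusted p was 0.0024 or less for each of these 4 genes. After regional centring Cyld was at 0.14 (limma adjusted p = 0.073) and Otud7b at -0.06 (limma adjusted p = 0.45), and neither passed. Kpna3, an importin, was at 72.7 ± 0.991 and 70.7 ± 1.37 CPM (mean ± SD, n = 3 each; limma, adjusted p = 0.54). Without sgControl replicate 2 or without sgNDUFS4 replicate 1, 1 gene of this list was lower in place of 2. After regional centring 2 members of this list were higher and 3 lower, and with TMM scaling 5 were higher and 4 lower.

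Of 27 receptors listed, 12 could be tested, of which 4 were higher and 3 lower, around a median of 0.07. Among all genes tested, 31.8% were higher and 20.3% lower. The lymphotoxin β receptor gene Ltbr, an entry to the non-canonical pathway, fell from 96.95 ± 5.08 to 76.5 ± 2.78 CPM, and Tnfrsf1a, the main receptor for tumour necrosis factor, fell from 136.5 ± 3.89 to 119.4 ± 3.29 CPM (SD, n = 3 each). Tnfrsf10b, a death receptor, and Tlr3, a sensor of double-stranded RNA, were higher, at 12.2 ± 0.402 against 6.46 ± 0.343 CPM for Tnfrsf10b and 22.4 ± 1.15 against 13.7 ± 2.62 CPM for Tlr3 (SD, n = 3 each). In limma the adjusted p was 0.00052 or less for each of these 4 receptors. Il1rap, the accessory chain of the interleukin-1 receptor, was at 29.3 ± 2.86 and 28.9 ± 0.766 CPM (mean ± SD, n = 3 each; limma, adjusted p = 0.89). Of 19 ligands listed, 10 had no read in any library, among them Lta, Ltb and Cd40lg, and only Tnfsf9 and Tnfsf12 were tested. Tnfsf9 was at 12.5 ± 1.74 and 15.6 ± 2.90 CPM (mean ± SD, n = 3 each; limma, adjusted p = 0.052), and Tnf was at 0.45 CPM or less in every library. With the replicate number as a block and with a filter of 5 CPM, 1 of the tested ligands was higher. The same count held without sgControl replicate 3 and without sgNDUFS4 replicate 2. In the fit with no filter 1 ligand was higher as well, but it was Il33 (limma adjusted p = 0.027), which the filter of 1 CPM had left out. The fit with no filter called 24.9% of its 13513 genes higher and 17.0% lower.

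Of 45 target genes listed, 27 could be tested, of which 6 were higher and 11 lower, around a median of -0.13. The shares over all genes tested were 31.8% higher and 20.3% lower. The chemokine gene Cxcl10 had the largest difference, from 229.9 ± 9.40 to 38.2 ± 1.35 CPM (SD, n = 3 each), with a log2 difference of -2.57 (limma adjusted p = 9.0e-24). The autophagy receptor Sqstm1 fell by 0.58 on the log2 scale and the cyclin gene Ccnd1 by 0.50. The class I heavy chain H2-K1 rose by 0.91 on that scale, and it has close paralogs that can share its reads. In limma the adjusted p was 1.45e-08 or less for each of these 3 genes. The surface receptor Cd44 was at 131.4 ± 0.217 and 128.0 ± 0.793 CPM (mean ± SD, n = 3 each; limma, adjusted p = 0.46). Members of this list are also controlled by other factors.

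**Figure D4:**
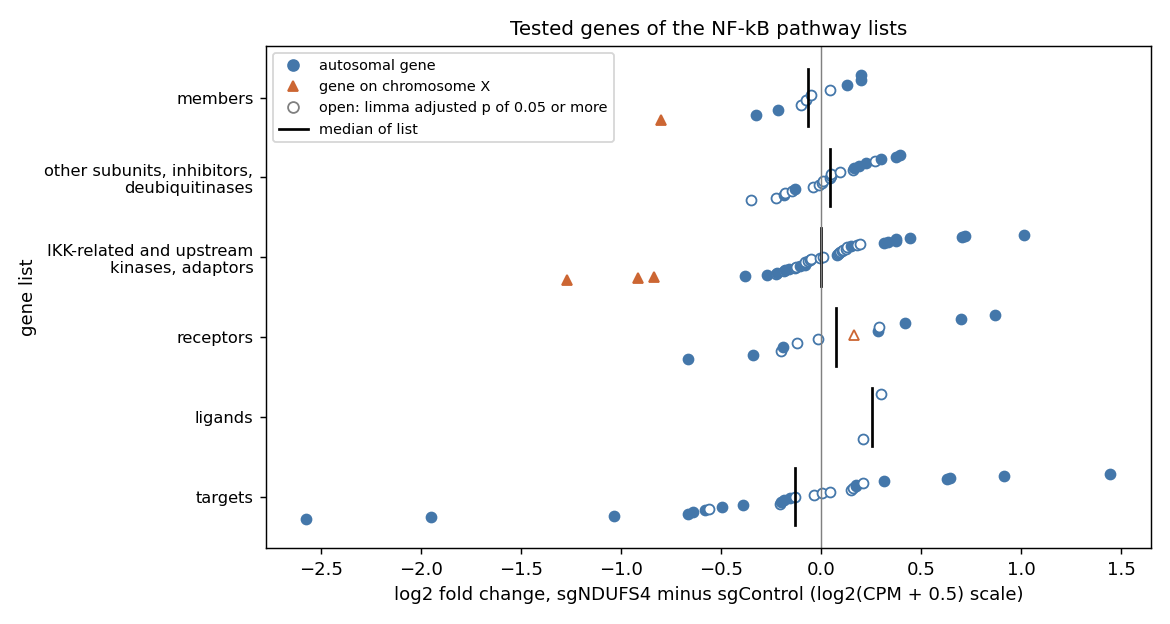
Log2 fold change (sgNDUFS4 minus sgControl) of every tested gene in the core and the 5 other lists of the pathway, ordered within each list, with filled symbols where limma adjusted p is under 0.05, triangles for chromosome X and bars for list medians. The triangles of Irak1, Xiap, Tab3 and Ikbkg lie between -1.27 and -0.80 and that of Eda2r at 0.16, and the list medians lie between -0.13 for targets and 0.25 for the 2 tested ligands.

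The genes most like the members in their profile over the 6 libraries were sought by the root mean square distance of centred log2(CPM + 0.5) values. For Nfkb1, whose rise of 0.20 as deposited was close to that of Chuk and smaller than it after regional centring, they were Gnl3, Itsn1 and Yipf5, at distances of 0.017, 0.019 and 0.019. For Ikbkg, the core gene with the largest fall, they were Gpaa1, Ttyh2 and Nup210, at distances of 0.031, 0.040 and 0.046, and all 3 lie on autosomes. With 2 groups of 3 libraries many genes share such a profile: 2513 genes lay within 0.1 of Nfkb1 and 92 within 0.1 of Ikbkg.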

How the data were processed

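Polyadenylated RNA of 6 libraries was sequenced in pairs without strand, per the labels' protocols. Per the submitters' processing notes, reads went through HISAT2 with GRCm38 as the build. Which counter and gene models were used is not given in the sources used here. Expression was deposited by the authors as CPM, which is relative to the reads counted in genes of each library. Dividing by the step of 1 read gave whole reads for 99.98% to 100% of values within a tolerance of 0.01.

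Groups came from the labels. limma 3.58.1 (R 4.3.3) was run with a mean-variance trend on log2(CPM + 0.5) on the 11063 genes whose mean reached 1 CPM, 2-sided, with Benjamini-Hochberg adjustment. The scripts were tested on simulated data. Symbols were matched to GENCODE M21 (GRCm38) for positions and exon lengths. Alternatives were other pseudocounts and filters, TMM scaling, no trend, edgeR 4.0.16 and DESeq2 1.42.0 on the recovered reads, a replicate block, regional centring and each library left out. The named genes are the 10 members, Ndufs4, G6pdx, flanking tested genes, per list the 4 smallest p-values and the most abundant gene that did not pass, and the 3 nearest profiles. The members and lists were chosen with earlier results of these data known, and no set test was run.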

Additional observations from a re-analysis of the deposited data

How the results depend on the processing

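Of the core genes, Nfkb1, Nfkb2 and Relb kept direction and side of the threshold in all 16 alternatives. The Ikbkb call was lost in 10 of them, the Chuk call in 3 and the Nfkbia call in 1, and Nfkbib passed in 1. Tnfaip3 could not be tested with a filter of 5 CPM. Of the 3 genes called higher, 1 remained with TMM scaling, 1 with edgeR and 1 with DESeq2, in each case Nfkb1, and the cause was not tested. With a library left out, 2 to 3 were higher and 2 to 3 lower. Reversed signs were Ikbkg at 0.077 and Rela at 0.043 with regional centring, which subtracts the neighbours' median by construction, and Tnfaip3 at -0.046 with edgeR, -0.056 with DESeq2, -0.18 with regional centring, -0.27 without sgControl replicate 2 and -0.17 without sgNDUFS4 replicate 1, where the left-out range was -0.27 to 0.34. No other alternative changed the sign of a core gene. Over all genes, leaving out a library gave 3009 to 3401 higher and 1952 to 2184 lower, and over the other pathway genes 22 to 27 higher and 20 to 24 lower.

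Same-numbered libraries of the groups share a number in the labels, and whether they share a preparation is not given and was not tested. Their deviations from the group means correlated at 0.056, 0.012 and 0.097 across genes. Pairs with unlike numbers correlated at between -0.087 and 0.035. The library sgNDUFS4 replicate 2 correlated best with sgControl replicate 1, and each other library with its own number. The replicate block called the same 6 core genes, with 3 higher and 3 lower, and 3632 genes higher and 2309 lower over all. Tnfaip3 rests on 18 to 57 reads per library, and the part of depth in its spread was not tested. The length of the principal transcript, and 20 or 100 neighbours in place of 50, were added after the data were seen; the regional median at Ikbkg was -0.91 with 20 neighbours and -0.80 with 100 neighbours.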

Other observations

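Below the filter of 1 CPM, 30 of the listed pathway genes had a read in at least 1 library, and in the limma fit without that filter 8 of them were lower and 2 higher in sgNDUFS4. Over all 13513 genes of that fit, 17.0% were lower and 24.9% higher. Most of those genes lie above the filter, so these shares are not those of genes as scarce as the 30. Shares among the genes below the filter alone were not computed. The genes named here passed that fit and were chosen after their values were seen. Among the lower ones were the chemokine targets Ccl2, Cxcl5 and Cxcl2, the targets Lcn2 and Birc3, the adaptor Traf5 and the receptor gene Ngfr. Ccl2 was at 1.05, 0.719 and 0.718 CPM under sgControl and at 0.232, 0 and 0 CPM under sgNDUFS4. Birc3, an inhibitor of apoptosis and textbook target, had 15, 9 and 29 reads in sgControl and none under sgNDUFS4. Its sgControl mean of 0.810 CPM was 6.80 times the sgNDUFS4 floor of detection, set at 3 reads per library. That value leaves out the spread of the sgControl libraries, so it is not a lower bound. The higher ones were Tnfrsf1b, at 0.461 and 1.09 CPM, and the cytokine gene Il33, at 0.435 and 1.13 CPM on average. All of these rest on at most 40 reads in a library, and the floor covers counting error on the sgNDUFS4 side only.

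Among markers of other cell types, Cd68 was at 5.62, 5.71 and 3.19 CPM in sgControl and at 4.18, 1.92 and 1.81 CPM in sgNDUFS4, where the groups overlapped.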
